A study of Mus musculus with 6 samples.

Results

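Serpins are a large family of proteins that share one fold, most of which inhibit serine proteases. The rows of the deposited table whose symbol starts with Serpin were taken as the family, which gave 53 of 36652 genes. The samples are testes taken at 8 weeks of age. Their DNase-treated total RNA went into stranded mRNA libraries, 3 labelled Ccdc117ko and 3 labelled WT. The labels name the genotype only as Ccdc117ko, without the allele or the strain, and do not say whether each replicate is its own mouse. P-values therefore reflect only how far these samples spread, which may be technical. Ccdc117, a coiled-coil gene, had 3478, 3772 and 3908 normalized counts in the Ccdc117ko libraries and 3657, 3826 and 3931 in the WT libraries (log2 fold change -0.03 ± 0.05 SE, limma adjusted p = 0.714). The gene total did not separate the genotypes and so does not check the labels, and every direction given is that of the libraries labelled Ccdc117ko.

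An inhibitory serpin offers a loop to its target protease as bait. When the protease cuts the loop, the serpin refolds and traps the protease in a complex that receptors of the LDL receptor family clear. Some members have lost this activity and carry hormones or help other proteins fold. Clade A serpins are mostly secreted, clade B serpins mostly stay inside cells, and mice carry expanded clusters of near copies of both. In testis the best known member is Serpina5, the protein C inhibitor, since male mice without it are infertile.

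A library held 35791616 to 43461692 reads, recovered as whole reads from the deposited values. Levels are given as normalized counts, which are reads divided by the scaling factor of the library. Of the 53 members, 35 reached the filter, a mean of 10 normalized counts across libraries, and were tested. All 22 clade A members of chromosome 12 lie between positions 103614786 and 104414329 of mm10, and 13 clade B members lie on chromosome 13. Of 12 round spermatid markers 10 were higher, and their summed level was 106879 to 110883 normalized counts in Ccdc117ko libraries and 91389 to 96274 in WT libraries. Sertoli cell markers had 7 of 16 lower, with sums of 72122 to 74396 in Ccdc117ko libraries and 78654 to 81231 in WT libraries. Leydig cell markers, the androgen-making cells, had 5 of 12 higher and 4 lower, with sums of 85146 to 98593 in Ccdc117ko libraries and 73637 to 84663 in WT libraries. Every marker of these 3 lists had reads. The part of such shifts in the Serpin results was not tested, and in whole testis fewer cells of a type cannot be told apart from less RNA per cell. Fold changes were also lower for longer transcripts (Spearman rho -0.389 over 14256 protein-coding genes). With values corrected for length and GC of the transcripts, genes called lower (limma, adjusted p under 0.05) went from 1887 to 976. Those called higher went from 1911 to 1814. Whether the shifts of the marker lists hold with that correction was not tested.

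Serpina7, Serpinb9b and Serpina3a were higher in Ccdc117ko testes, and Serpina1f, Serpina3g and Serpina3c were lower. That is 6 of 35 tested members, or 17.1%, against 16.6% of all 22878 genes tested (limma, adjusted p under 0.05), so the share of called members was near that of all genes. By direction, 8.35% of all genes (1911) were higher and 8.25% (1887) lower, and with upper-quartile scaling the split was 2187 higher and 1524 lower. These shares are also the scale for every count of marker or pathway genes given here. The median log2 fold change was -0.13 over the 35 members and -0.01 over all genes tested. The 3 values of each genotype did not overlap for 13 tested members, where 34.5% of all tested genes showed no overlap. The calls depended on single libraries: the 3 higher members became 0 without Ccdc117ko replicate 2 or WT replicate 3, 1 without Ccdc117ko replicate 3, 2 without Ccdc117ko replicate 1 or WT replicate 2, and 4 without WT replicate 1, while the 3 lower members became 2 without Ccdc117ko replicate 2 or 3 or WT replicate 1.

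**Figure D1:**
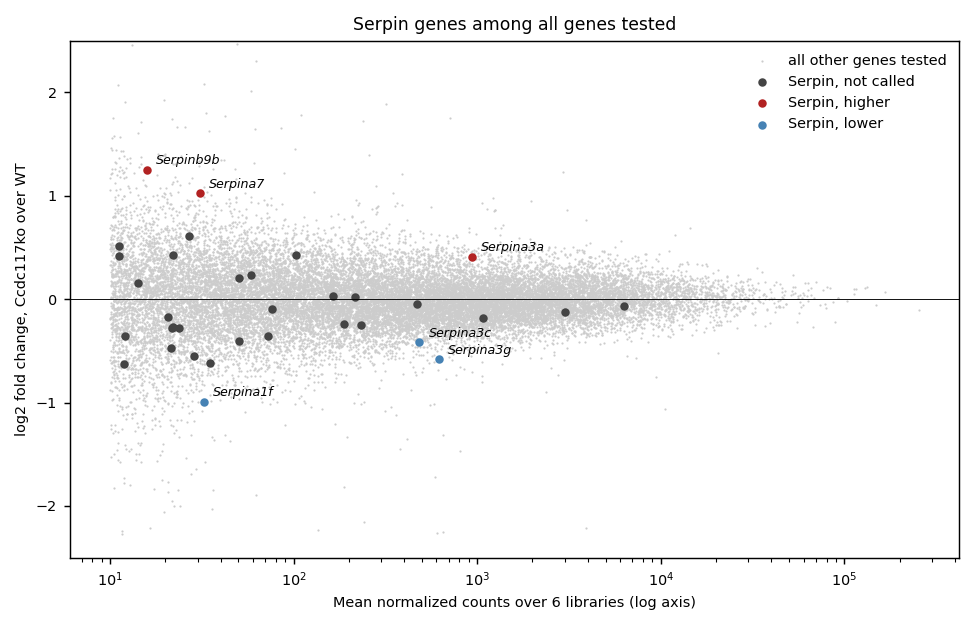
Each point is a gene, with its mean normalized counts over 6 libraries on a log axis and its log2 fold change, Ccdc117ko over WT; grey points are all genes tested, and 24 genes beyond 2.5 on the vertical axis are not drawn. The 34 Serpin genes marked spread through the cloud of other genes, with the 3 higher members in red and the 3 lower members in blue.

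Among the antichymotrypsin copies on chromosome 12, genes of the same cluster were called in opposite directions. Serpina3a was the only copy called higher, and its call was lost in 6 of 16 alternatives. Serpina3g and Serpina3c were lower. These genes descend from copies of the gene for alpha-1-antichymotrypsin, an inhibitor that human livers secrete in the acute phase. Their upstream sequences are shown because the genes share ancestry and a cluster. Serpina3a, Serpina3b and Serpina3c follow each other, while Serpina3e-ps and Serpina3f lie between Serpina3c and Serpina3g. They are the 250 bases before the RefSeq transcript start (build GRCm38.p6), with capitals marking matches to the motifs named after them.
Serpina3a, chr12:104112474-104112723, plus strand: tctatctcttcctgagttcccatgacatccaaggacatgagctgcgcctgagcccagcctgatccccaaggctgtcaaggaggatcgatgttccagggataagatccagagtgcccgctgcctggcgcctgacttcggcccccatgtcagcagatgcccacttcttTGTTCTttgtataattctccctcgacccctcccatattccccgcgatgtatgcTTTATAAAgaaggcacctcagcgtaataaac
Serpina3b, chr12:104127746-104127995, plus strand: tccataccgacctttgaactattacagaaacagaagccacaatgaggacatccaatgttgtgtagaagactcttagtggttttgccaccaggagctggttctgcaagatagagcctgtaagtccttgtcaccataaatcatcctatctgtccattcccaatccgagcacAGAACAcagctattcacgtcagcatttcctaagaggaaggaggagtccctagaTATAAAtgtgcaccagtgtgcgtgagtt
Serpina3c, chr12:104153873-104154122, minus strand: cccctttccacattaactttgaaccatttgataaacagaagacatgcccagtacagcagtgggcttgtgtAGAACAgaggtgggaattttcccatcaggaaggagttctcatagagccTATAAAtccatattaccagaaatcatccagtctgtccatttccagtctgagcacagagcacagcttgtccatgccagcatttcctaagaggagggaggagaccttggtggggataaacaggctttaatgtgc
Serpina3g, chr12:104235897-104236146, plus strand: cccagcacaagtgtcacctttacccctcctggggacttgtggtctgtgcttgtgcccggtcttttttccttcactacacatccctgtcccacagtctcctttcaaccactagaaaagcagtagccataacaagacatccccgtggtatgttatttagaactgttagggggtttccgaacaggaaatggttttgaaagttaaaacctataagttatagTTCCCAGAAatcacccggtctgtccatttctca

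The search covered 6 motifs on both strands: TATAAA, the core promoter box; AGAACA, a half-site of the androgen and glucocorticoid receptors; the full receptor site, which is that half-site and its reverse complement with 3 bases between them and so overlaps it; TTCNNNGAA, a STAT factor site; CAAGGTCA, a site of Nr5a1; and TGACGTCA, a cAMP response element. Serpina3a held TATAAA 29 bases before the start, overlapping its reverse complement, and AGAACA on the other strand 84 bases before it. Serpina3b held TATAAA at 28 bases and AGAACA at 81 bases. Serpina3c held TATAAA at 132 bases and AGAACA at 180 bases. Serpina3g held only TTCNNNGAA, at 33 bases. For scale, TATAAA stood in 12.4% of 32851 RefSeq promoters of this length, AGAACA in 16.1%, TTCNNNGAA in 7.02%, CAAGGTCA in 1.33%, TGACGTCA in 1.55% and the full receptor site in 3 promoters, and none of the last 3 matched these 4 genes. The upstream regions of Serpina3c and Serpina3g aligned over 153 bases with 77.1% identity, and those of Serpina3b and Serpina3c over 227 bases with 74.4%. Those of Serpina3b and Serpina3g aligned over 142 bases with 74.6% identity. Serpina3a aligned with Serpina3b over 95 bases with 71.6%, with Serpina3c over 67 bases with 68.7% and with Serpina3g over 28 bases only. Across the 48 RefSeq promoters of 42 members, 10 held TATAAA, 17 AGAACA and 8 TTCNNNGAA. A match describes the letters and not binding.

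Serpina3a (ENSMUSG00000041536, chr12:104112724-104121896, plus strand) had 998, 1065 and 1114 normalized counts in Ccdc117ko testes and 972, 734 and 705 in WT testes. All Ccdc117ko values lay above all WT values, and WT replicate 1 stood close below the lowest of them. The gene averaged 1059 ± 57.9 in Ccdc117ko testes and 804 ± 147 in WT testes (SD, n = 3 each). Its log2 fold change was 0.41 ± 0.10 SE (limma adjusted p = 0.018). The call was lost without Ccdc117ko replicate 2 (adjusted p = 0.0645) or 3 (0.0709) or WT replicate 2 (0.071) or 3 (0.0738), and with genes down to a mean of 0.5 tested (0.0803).

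Serpina3g (ENSMUSG00000041481, chr12:104236245-104241939, plus strand), known in mouse leukocytes as the cathepsin inhibitor Spi2A, had 549, 445 and 498 normalized counts in Ccdc117ko testes and 843, 754 and 638 in WT testes. The lowest WT library stood above the highest Ccdc117ko library. It averaged 497 ± 51.8 in Ccdc117ko testes and 745 ± 103 in WT testes (SD, n = 3 each). The log2 fold change was -0.58 ± 0.10 SE (limma adjusted p = 0.00373), and the gene stayed called in all 16 alternatives. Macrophage markers were also lower for 3 of 12 genes. Their summed levels overlapped, at 4133 to 4457 normalized counts in Ccdc117ko libraries and 4442 to 5262 in WT libraries. None of them was without reads, and their part in the result was not tested. Lower markers were not particular to leukocytes, since 7 of 16 Sertoli cell markers were lower and 0 higher. Of the mast, T and natural killer cell markers 1 of 5 tested was lower, with sums of 683 to 753 in Ccdc117ko libraries and 925 to 1070 in WT libraries, and Prf1 and Cma1 had means under 1 normalized count. Kit in this list is also a spermatogonium marker, so the sum is not one of these cells alone. Of the spermatogonium markers 4 of 13 were lower, with sums of 7626 to 8100 in Ccdc117ko libraries and 8533 to 9012 in WT libraries. The part of these cells was not tested either.

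Serpina3c (ENSMUSG00000066361, chr12:104146382-104153870, minus strand) had 454, 373 and 419 normalized counts in Ccdc117ko testes and 604, 537 and 521 in WT testes. Again the groups did not overlap. Averages were 415 ± 40.5 in Ccdc117ko testes and 554 ± 44.3 in WT testes (SD, n = 3 each). The log2 fold change was -0.42 ± 0.09 SE (limma adjusted p = 0.010), and the call was lost without Ccdc117ko replicate 2 (adjusted p = 0.053).

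As a description, ratios within a library, where scaling cancels, restate the 3 calls, since these genes were picked by them. The ratio of Serpina3a to Serpina3g counts was 1.82, 2.39 and 2.24 in Ccdc117ko libraries and 1.15, 0.974 and 1.10 in WT libraries. Serpina3a to Serpina3c gave 2.20, 2.86 and 2.66 in Ccdc117ko libraries and 1.61, 1.37 and 1.35 in WT libraries. Serpina3c to Serpina3g, both called lower, gave 0.827, 0.838 and 0.842 in Ccdc117ko libraries and 0.717, 0.713 and 0.817 in WT libraries. The summed counts of all 11 antichymotrypsin copies overlapped between genotypes, at 2280, 2177 and 2329 in Ccdc117ko libraries and 2755, 2293 and 2088 in WT libraries.

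The other antichymotrypsin copies were not called. Serpina3b, between Serpina3a and Serpina3c, had 96.9, 137 and 120 normalized counts in Ccdc117ko testes and 109, 84.3 and 70.8 in WT testes, a log2 fold change of 0.43 ± 0.19 SE (limma adjusted p = 0.135), and of the alternatives run it was called only without WT replicate 1 (adjusted p = 0.0459), while its log2 fold change was 0.29 without WT replicate 3. Serpina3n, which inhibits granzyme B in mouse, had 69.0, 65.0 and 55.4 in Ccdc117ko testes and 97.7, 73.6 and 72.7 in WT testes (log2 fold change -0.35, adjusted p = 0.212; -0.21 without WT replicate 1). Its groups did not overlap. The pseudogene Serpina3l-ps averaged 53.4 ± 6.38 in Ccdc117ko testes and 47.1 ± 12.4 in WT testes (SD, n = 3 each). Of the 11 copies 9 were tested, with 1 higher, 2 lower and 6 not called, and a median log2 fold change of -0.26. Reads of near copies can be split between them by the counting: 0.06% of the 50-base words of Serpina3a occurred in a transcript of another gene, 4.25% of those of Serpina3c and 16.0% of those of Serpina3g, the last mostly shared with Serpina3h, Serpina3f and Serpina3i. Serpina3f and Serpina3h had means of 7.64 and 11.8 normalized counts and Serpina3i of 21.9, against 621 for Serpina3g.

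**Figure D2:**
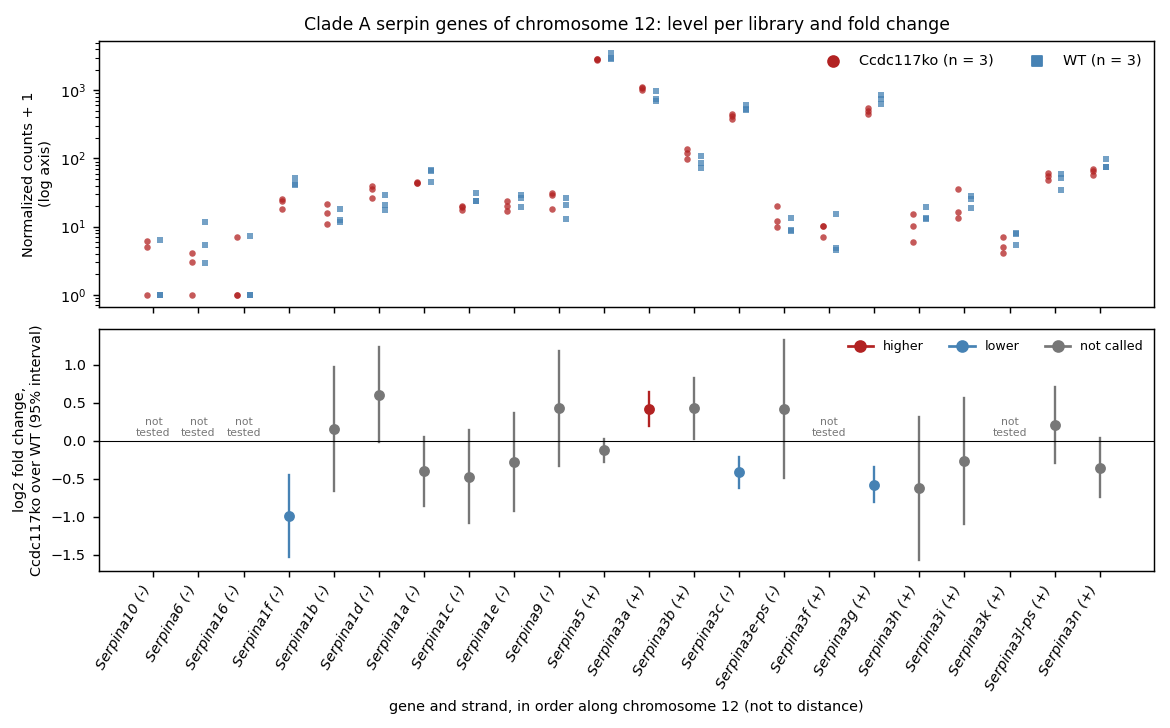
The 22 clade A serpin genes of chromosome 12 in their order, with normalized counts plus 1 in each library on a log axis (top) and log2 fold changes, Ccdc117ko over WT, with limma 95% intervals (bottom; 5 genes under the filter are not tested). Serpina3a lies above 0 and Serpina3c and Serpina3g below 0, within a run that starts beside the abundant Serpina5.

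In the same cluster Serpina1f was lower, the 1 call among 6 tested antitrypsin copies, whose median log2 fold change was -0.34. Alpha-1-antitrypsin is the main plasma inhibitor of neutrophil elastase, and the mouse carries several copies of its gene. Serpina1f (ENSMUSG00000021081, chr12:103688044-103695529, minus strand) had 23.0, 24.4 and 17.1 normalized counts in Ccdc117ko testes and 49.9, 41.3 and 39.3 in WT testes. Every Ccdc117ko library had fewer than any WT library. It averaged 21.5 ± 3.85 in Ccdc117ko testes and 43.5 ± 5.65 in WT testes (SD, n = 3 each). Its log2 fold change was -0.99 ± 0.25 SE (limma adjusted p = 0.0183). The call was lost without Ccdc117ko replicate 3 (adjusted p = 0.0603) or WT replicate 1 (0.0542). Its upstream 250 bases held TTCNNNGAA 97 bases before the start. None of its 50-base words occurred in another gene, unlike the other copies, for which 35.6% to 74.2% did, so single values of those copies are uncertain.

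The remaining 5 antitrypsin copies were not called. Serpina1a had 44.0, 42.7 and 42.3 normalized counts in Ccdc117ko testes and 44.5, 63.7 and 65.8 in WT testes (log2 fold change -0.40, limma adjusted p = 0.215). Serpina1d lay the other way, at 38.0, 34.6 and 25.2 in Ccdc117ko testes and 16.3, 27.8 and 19.7 in WT testes (log2 fold change 0.61, adjusted p = 0.179). Serpina1b, Serpina1c and Serpina1e ranged from 14.2 to 21.7 in mean level. The sum over these 5 copies came to 139, 133 and 112 in Ccdc117ko libraries and 119, 159 and 147 in WT libraries, and overlapped between genotypes. This sum does not depend on how reads were split among the 5 copies. It can still depend on reads shared with the pseudogene Gm8893 and on whether shared reads were counted, which is not stated.

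Among the carriers of hormones, Serpina7 was higher and Serpina6 was under the filter. Serpina7 encodes thyroxine-binding globulin, which carries thyroid hormone in blood, and Serpina6 encodes the corticosteroid-binding globulin. Serpina7 is the only member on the X chromosome, and its upstream region is shown, in the same form, because it is the called clade A gene outside the cluster.
Serpina7, chrX:139085237-139085486, minus strand: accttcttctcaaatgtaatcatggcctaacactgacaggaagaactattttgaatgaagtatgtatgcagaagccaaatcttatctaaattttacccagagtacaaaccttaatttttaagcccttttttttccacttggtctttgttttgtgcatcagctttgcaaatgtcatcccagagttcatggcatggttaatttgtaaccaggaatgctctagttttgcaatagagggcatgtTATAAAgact

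Serpina7 (ENSMUSG00000031271, chrX:139079257-139085236, minus strand) had 37.0, 42.7 and 45.4 normalized counts in Ccdc117ko testes and 20.6, 21.5 and 17.7 in WT testes. The groups were well apart, with the lowest Ccdc117ko library above the highest WT library. Mean levels were 41.7 ± 4.28 in Ccdc117ko testes and 19.9 ± 2.01 in WT testes (SD, n = 3 each), a ratio of 2.09. The log2 fold change was 1.03 ± 0.24 SE (limma adjusted p = 0.0137). The call was lost without Ccdc117ko replicate 2 (adjusted p = 0.0587) or 3 (0.0545) or WT replicate 3 (0.0512). TATAAA stood 10 bases before this start and 27 bases before a second RefSeq start of the gene, and the other 5 motifs had no match in either window. Serpina6, with 0, 3.05 and 2.02 in Ccdc117ko testes and 4.34, 10.8 and 1.97 in WT testes, overlapped between genotypes.

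Clade B serpins held the most abundant member and the largest fold change of those tested. Serpinb6a, which inhibits cathepsin G in the cytosol, had 6150, 6330 and 5982 normalized counts in Ccdc117ko testes and 6148, 6602 and 6542 in WT testes. These values overlapped, with WT replicate 1 among the Ccdc117ko libraries (log2 fold change -0.06, 95% interval -0.16 to 0.03, limma adjusted p = 0.373). Ripk1 and Nqo2 overlap Serpinb6a on the other strand, and the use of strand in the counting is not given in the sources used here. Serpinb9b (ENSMUSG00000021403, chr13:33027416-33041884, plus strand) had 26.0, 24.4 and 18.1 in Ccdc117ko testes and 8.68, 11.7 and 6.88 in WT testes. Each Ccdc117ko library was above all WT libraries. It averaged 22.8 ± 4.15 in Ccdc117ko testes and 9.07 ± 2.42 in WT testes (SD, n = 3 each). Its WT mean alone lay under the filter of 10, so the gene entered the test through its Ccdc117ko libraries. The log2 fold change was 1.25 ± 0.35 SE (limma adjusted p = 0.0288). The call was lost without Ccdc117ko replicate 1 (adjusted p = 0.0946) or 2 (0.104) or WT replicate 3 (0.0963), and with genes down to a mean of 0.5 tested (0.0507). Only 0.50% of its 50-base words occurred in another gene, and its upstream 250 bases held AGAACA 185 bases before the start. Gm36099 overlaps it on the other strand.

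Serpinb9, the neighbouring copy and the cytosolic inhibitor of granzyme B, was not called. It had 185, 130 and 182 normalized counts in Ccdc117ko testes and 171, 186 and 130 in WT testes, which overlap across nearly their whole range (log2 fold change 0.03, 95% interval -0.33 to 0.39). Serpinb1a, an inhibitor of neutrophil elastase, had 180, 159 and 174 in Ccdc117ko testes and 213, 222 and 175 in WT testes (log2 fold change -0.24, limma adjusted p = 0.208). Serpinb6b had 31.0, 28.5 and 23.2 in Ccdc117ko testes and 39.1, 46.7 and 42.3 in WT testes, without overlap but not called (log2 fold change -0.62, adjusted p = 0.0857). Serpinb6c was scattered, at 42.0, 63.0 and 88.7 in Ccdc117ko testes against 49.9, 53.8 and 53.1 in WT testes. Serpinb9h and Serpinb9d, near copies with 81.5% and 30.8% of their 50-base words in other genes, averaged 20.6 and 12.1 over all libraries and overlapped between genotypes. Of 18 clade B members outside the plasminogen group, 8 were tested, with 1 higher and 7 not called.

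**Figure D3:**
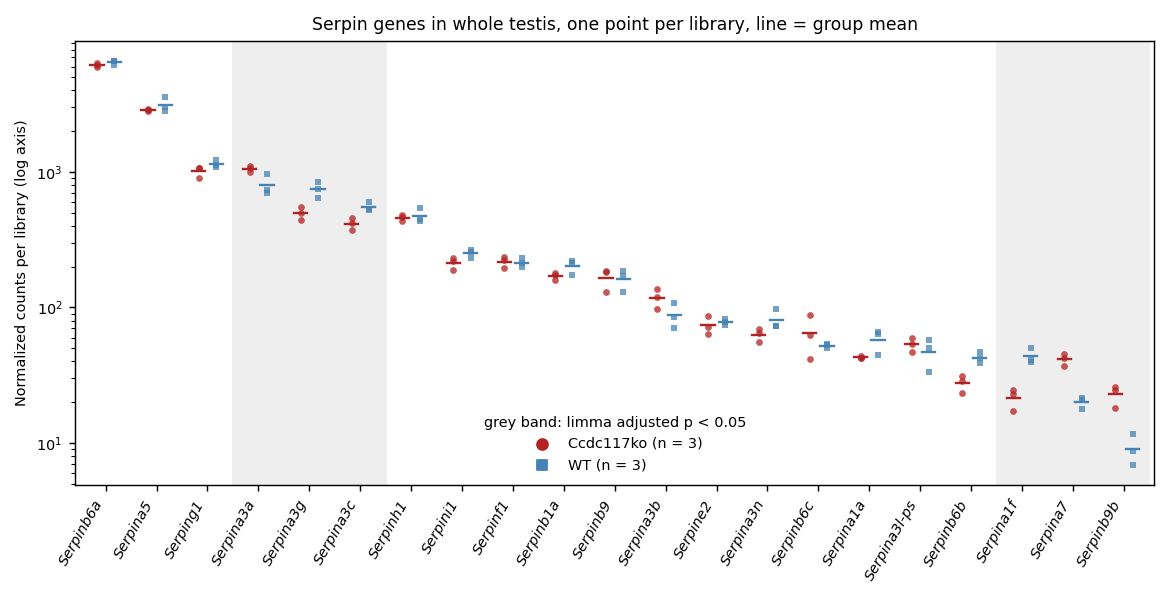
Normalized counts per library (log axis) of 19 of the 20 most abundant Serpin genes with Serpina7 and Serpinb9b, Ccdc117ko left of WT, with a line at each group mean and a grey band behind genes called by limma. In the 6 banded genes the Ccdc117ko and WT points do not overlap, while Serpinb6a, Serpina5, Serpinh1, Serpinf1 and Serpinb9 overlap.

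Inhibitors of plasminogen activators and plasmin, which hold back the proteolysis that loosens matrix and cell junctions, gave no call. Serpina5 had 2805, 2901 and 2877 normalized counts in Ccdc117ko testes and 3549, 2843 and 3023 in WT testes. The groups overlapped at WT replicate 2 (log2 fold change -0.13, 95% interval -0.28 to 0.02, limma adjusted p = 0.24). The value rested on the WT libraries: it was -0.035 without WT replicate 1, the highest, and -0.20 without WT replicate 2, not called in either case (adjusted p = 0.692 and 0.0876). Serpini1, or neuroserpin, an inhibitor of tissue plasminogen activator, had 188, 231 and 219 in Ccdc117ko testes and 258, 264 and 233 in WT testes. These came close without overlapping (log2 fold change -0.25, adjusted p = 0.152; -0.16 without Ccdc117ko replicate 1). Serpine2, or protease nexin 1, averaged 73.9 ± 11.6 in Ccdc117ko testes and 78.4 ± 3.93 in WT testes (SD, n = 3 each), and its values overlapped between genotypes. Serpinf2, alpha-2-antiplasmin, averaged 22.2 ± 1.12 in Ccdc117ko testes and 35.3 ± 17.4 in WT testes (SD, n = 3 each), where WT replicate 1, at 55.3, alone was high (log2 fold change -0.55, adjusted p = 0.268). Serpinb2, plasminogen activator inhibitor 2, averaged 13.1 ± 6.64 in Ccdc117ko testes and 9.33 ± 6.09 in WT testes (SD, n = 3 each). Of 7 members 6 were tested and none was called, with a median log2 fold change of -0.11.

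Their target Plat, tissue plasminogen activator, fell. Plat had 415, 373 and 371 normalized counts in Ccdc117ko testes and 491, 492 and 471 in WT testes (log2 fold change -0.33, limma adjusted p = 0.0164). Klkb1, plasma prekallikrein, rose to 417 ± 19.3 in Ccdc117ko testes against 323 ± 21.6 in WT testes (log2 fold change 0.37, adjusted p = 0.0137). Of 16 tested proteases and receptors of plasminogen and coagulation, 1 was higher, 1 lower and 14 not called, with a median of -0.06. The call of Plat was lost with values corrected for length and GC of the transcripts (adjusted p = 0.0523), and without Ccdc117ko replicate 2 (0.0707) or 3 (0.0583) or WT replicate 2 (0.0539); that of Klkb1 was lost without Ccdc117ko replicate 2 (0.0699) or WT replicate 3 (0.0603).

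Serping1, the C1 inhibitor of complement and contact activation, was an abundant member and was not called. It had 1065, 910.5 and 1069 normalized counts in Ccdc117ko testes and 1224, 1085 and 1130 in WT testes. The groups did not overlap (log2 fold change -0.18, 95% interval -0.34 to -0.01, limma adjusted p = 0.13; log2 fold change -0.10 without Ccdc117ko replicate 2). Serpinc1, antithrombin, averaged 21.2 ± 5.24 in Ccdc117ko testes and 26.1 ± 7.49 in WT testes (SD, n = 3 each). Serpind1 and Serpina10 had at most 5.38 in any library.

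The collagen chaperone and the vessel growth inhibitor of the family, which inhibit no protease, were not called. Serpinh1, the collagen chaperone HSP47, had 479, 462 and 434 normalized counts in Ccdc117ko testes and 544, 449 and 435 in WT testes. Serpinf1, or pigment epithelium-derived factor, an inhibitor of vessel growth, had 234, 223 and 196 in Ccdc117ko testes and 212, 199 and 230 in WT testes. Both genes overlapped between genotypes, with log2 fold changes of -0.05 (95% interval -0.25 to 0.16) and 0.02 (-0.22 to 0.26). Among enzymes and chaperones that fold collagen with Serpinh1, 5 of 17 tested were lower, none was higher and 12 were not called (median -0.15). Of all genes tested, 8.25% were lower. Fkbp14, a prolyl isomerase, averaged 494 ± 16.7 in Ccdc117ko testes and 637 ± 25.4 in WT testes (SD, n = 3 each; limma adjusted p = 0.00571), and stayed called in all 16 alternatives. Plod2, a lysyl hydroxylase, averaged 301 ± 15.5 in Ccdc117ko testes and 392 ± 46.0 in WT testes, and the calls of Plod2, Hspa5 and P4ha1 were lost with genes down to a mean of 0.5 tested (adjusted p = 0.0644, 0.0586 and 0.0824). Without Ccdc117ko replicate 2 these 3 calls were also lost (adjusted p = 0.0543, 0.0635 and 0.0951), and Plod2 and P4ha1 were lost without Ccdc117ko replicate 1 (0.0528 and 0.112) or 3 (0.0844 and 0.0847) or WT replicate 3 (0.114 and 0.17), P4ha1 also without WT replicate 1 (0.0676). P4ha1 was also lost with upper-quartile scaling (adjusted p = 0.0561) and with the length and GC correction (0.134), in all under 11 of 16 alternatives.

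**Figure D4:**
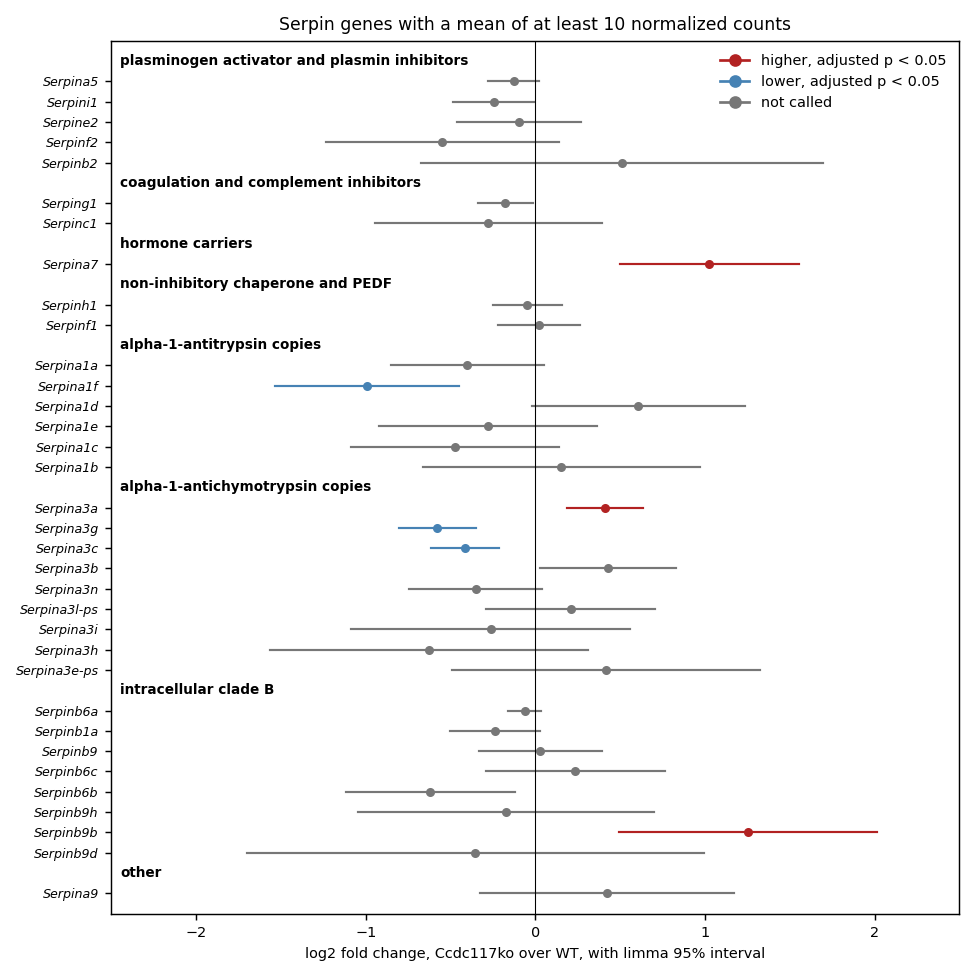
Log2 fold changes, Ccdc117ko over WT, of 34 of the 35 tested Serpin genes with limma 95% intervals, grouped by role and ordered by mean level within a group. Red and blue mark the 3 genes called higher and the 3 called lower, and the widest intervals belong to genes near the filter such as Serpinb9d and Serpinb2.

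Acrosomal proteases, which serpins of the male tract can meet, were higher in part. Of 13 tested acrosomal and sperm serine proteases and their partners, 6 were higher, 0 lower and 7 not called, with a median of 0.14. Acr, which encodes acrosin, the acrosomal protease that Serpina5 can inhibit, averaged 9563 ± 128 normalized counts in Ccdc117ko testes and 8319 ± 124 in WT testes (SD, n = 3 each; log2 fold change 0.20, limma adjusted p = 0.00446). Pcsk4, a sperm proprotein convertase, had a log2 fold change of 0.28 (adjusted p = 0.00098), Prss54 of 0.32 (0.00242) and Prss46 of 0.22 (0.0104). Acr, Pcsk4 and Prss54 stayed called in all 16 alternatives, while Prss46 was lost with the length and GC correction (adjusted p = 0.056) and without Ccdc117ko replicate 2 (0.0558) or WT replicate 3 (0.0506). Acr is itself among the round spermatid markers, whose sums were higher in the Ccdc117ko libraries, and their part in these values was not tested.

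Among leukocyte granule proteases Gzmn, a granzyme expressed in mouse testis, was higher. Gzmn averaged 1338 ± 68.1 normalized counts in Ccdc117ko testes and 1002 ± 135 in WT testes (SD, n = 3 each; log2 fold change 0.42, limma adjusted p = 0.00738), and was called in all 16 alternatives. Only 4 of 13 granule proteases in the table could be tested. Of 12 tested tissue kallikreins 3 were lower and none higher, namely Klk1b3 at -0.86 (adjusted p = 0.013), Klk1b4 at -0.78 (0.0435) and Klk1b5 at -0.59 (0.0444), all near copies of each other whose reads can be split. The summed level of 21 kallikreins overlapped, at 3285 to 4608 normalized counts in Ccdc117ko libraries and 3025 to 3855 in WT libraries. Klk1b3 was lost without WT replicate 2 (adjusted p = 0.0605), and Klk1b4 and Klk1b5 were lost in 10 alternatives each, Klk1b4 with any library left out (0.0567 to 0.131) and Klk1b5 with any left out but Ccdc117ko replicate 2 (0.0734 to 0.134). None of 14 tested cysteine cathepsins and caspases was called, with Ctsl at -0.09 (adjusted p = 0.168) and Ctsb at -0.01 (0.936), both targets of cross-class serpins.

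Of the receptors that clear serpin complexes and their cofactors, 3 of 15 tested were lower and none was higher (median -0.04). Lrp1, the main clearance receptor, averaged 1792 ± 40.3 normalized counts in Ccdc117ko testes and 2166 ± 82.3 in WT testes (SD, n = 3 each; log2 fold change -0.27, limma adjusted p = 0.00466). Lrp8 had a log2 fold change of -0.24 (adjusted p = 0.00884) and Sdc4 of -0.20 (0.0263). Lrp1 and Lrp8 were no longer called after the same correction for length and GC (adjusted p = 0.27 and 0.139), and Sdc4 was lost without Ccdc117ko replicate 2 (0.109) or 3 (0.0748) or WT replicate 3 (0.0897). In the angiotensin system, built around a hormone precursor with the serpin fold, Agtr1a was lower at -0.28 (adjusted p = 0.0496; 0.0539 to 0.186 without any library but WT replicate 1), and 10 of 11 genes were not called. Among 17 tested Kazal, Kunitz and whey acidic protein inhibitors, other families that act on serine proteases, Spink2 was higher at 0.18 (adjusted p = 0.0145; 0.673 with the length and GC correction, 0.0575 without Ccdc117ko replicate 1 and 0.0635 without replicate 2) and 16 were not called.

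Levels between members were compared per kilobase of the longest transcript. Serpinb6a came first at 2872 normalized counts per kilobase, followed by Serpina5 at 1387, Serping1 at 611, Serpina3a at 541, Serpina3g at 344, Serpina3c at 219 and Serpinh1 at 206, each as a mean over 6 libraries. In counts, Serpinb6a and Serpina5 made up 63.7% of all reads of the family. The family sum was 14140, 14178 and 14056 normalized counts in Ccdc117ko libraries and 15726, 14799 and 14555 in WT libraries, lower in every Ccdc117ko library than in any WT library. This sum was not tested, and 34.5% of all tested genes showed no overlap either. Serpinb6a and Serpina5, its largest parts, each overlapped between genotypes and were not called.

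The 18 members under the filter had means from 0.50 to 9.67 normalized counts, and all 18 overlapped between genotypes. They include 10 clade B genes, Serpina10, Serpina16, Serpina3f, Serpina3k, Serpina6, Serpind1, Serpine3 and Serpini2. Serpinb5 had no read in the Ccdc117ko libraries and Serpinb13 none in the WT libraries, where a count of 0 still allows up to 3 reads per library, which is counting error only. Under the filter, differences in these genes were not tested here. In the authors' deposited table the lowest FDR among them was 0.457, for Serpini2. Serpina9, a clade A gene that was tested, had 28.0, 17.3 and 30.2 in Ccdc117ko testes and 19.5, 25.1 and 11.8 in WT testes, which overlap.

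The authors' deposited table gave 4 members an FDR under 0.05, against 11.5% of all its genes: Serpina3g at 6.84e-07, Serpina3c at 0.000496, Serpina7 at 0.0191 and Serpina1f at 0.0245. In the authors' deposited table Serpinb9b had an FDR of 0.0585 and Serpina3a of 0.081, so these 2 of the 6 members called here did not pass there.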

How the data were processed

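Per the labels, TRIzol-extracted testis RNA went into stranded mRNA libraries for Illumina sequencing. STAR, DESeq2 and mm10 appear in the submitters' processing notes without version or role. How reads were counted, and whether by strand, is not stated there. What the authors deposited is 1 table with a log2 value per gene and library, read from the values as log2(normalized count + 1), and their own log2 fold change, p-value and FDR, whose test is not stated. With the log2 undone, 100% of values under 500 reads were whole multiples of 1 step (tolerance 0.01), which gave the reads.

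Limma-trend (limma 3.58.1, R 4.3.3) was fitted to the deposited log2 values with no term but genotype, for those 22878 genes whose mean reached 10 normalized counts, where an earlier account of these data used 0.5, at which sparse genes enter the variance prior. P-values are two-sided and Benjamini-Hochberg adjusted over all genes tested. Fold changes include the pseudocount of 1, which understates those of low genes. Members, lists, filter and tests were chosen with earlier results of these data known. Named are Ccdc117, called members, the 20 most abundant members, and up to 4 called genes of each pathway list (the 2 most abundant where none was called); other members were named after their values were seen. Of the tested members 1 is not reported here, though counts and sums include it. Alternatives were other filters, scaling, pseudocount, limma-voom, robust limma, a replicate block, a length and GC correction (GENCODE M21, longest transcripts, 36551 genes matched) and each library left out. RefSeq promoters matched 42 of 53 members. In simulated reads for these 22878 genes with 200 changed, limma recovered 34.0% of 1.25-fold, 61.6% of 1.5-fold, 74.8% of 2-fold and 89.2% of 3-fold changes, with a mean of 6.8 false calls in 136.6. The data had 3798 genes called, and recovery and false calls with that many genes changed were not tested. Replicate pairs gave a chi-square of 4.43 to 7.00 per degree of freedom, so no pair differed by counting error alone. Separate libraries from the same mouse are not excluded by this. The first principal component separated the genotypes. Sequences of proteins were not used here.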

Additional observations from a re-analysis of the deposited data

How the results depend on the processing

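Serpina3g kept its call under all 16 alternatives. The 3 higher members became 1 with a mean of at least 0.5, with no filter beyond 1 read, or with at least 1 CPM in 3 libraries, the last of which leaves Serpina7 and Serpinb9b untested; with 1 library left out they numbered 0 to 4, and the 3 lower members 2 to 3. For all genes, 1911 higher and 1887 lower became 1212 and 1016 with a mean of at least 0.5 and 1204 and 1015 with no filter; the lower count was 976 with the length and GC correction and 811 with that and the replicate block. With 1 library left out the counts were 936 to 2041 higher and 778 to 1980 lower. Genes of the 9 pathway lists, 9 higher and 13 lower, had 8 lower with the correction and 4 lower with the block added, and 4 to 11 higher and 5 to 9 lower with 1 library left out. Across 14256 protein-coding genes averaging 50 normalized counts or more, which are not independent replicates, fold change was lower for longer transcripts (Spearman rho -0.389), the trend that the correction removes. The cause of the other shifts was not tested. Same-numbered libraries did not deviate together over all genes tested (correlations -0.003, -0.004 and 0.006). Such correlations cannot exclude a pairing that touches few genes, and whether the numbers pair libraries is not known. The replicate block alone gave 1762 higher and 1817 lower genes and kept the 6 member calls. It ended the calls of Klk1b4 (limma adjusted p = 0.0672), Klk1b5 (0.0567) and P4ha1 (0.0505), and left 11 higher and 9 lower genes in the pathway lists. Values near 0 changed sign without a call: Ctsl with the length and GC correction (0.010, also with the block) and Ctsb with it (0.096, and 0.096 with the block) or with upper-quartile scaling (0.0072). With 1 library left out, ranges crossed 0 for Serpinh1 (-0.11 to 0.050), Serpinf1 (-0.031 to 0.097), Serpinb9 (-0.12 to 0.19), Serpine2 (-0.21 to 0.0082), Serpinb6c (-0.022 to 0.51), Serpina3l-ps (-0.016 to 0.37) and Ctsb (-0.080 to 0.064). Depth limits the low members: 18 of 53 fell under the filter.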
